A study of Rattus norvegicus with 16 samples.

Results

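The comparison is of ozone against air in the livers of rats without adrenal glands, 8 of the 16 libraries of the series. Its members are the 4 libraries titled ADREX and Ozone (numbers 81 to 84) and the 4 titled ADREX and Air (numbers 65 to 68), and 12791 of 22587 genes were expressed highly enough to be tested. All rats were male, of the strain that the labels spell Wistar-Wyoto, and 13 weeks old. The ADREX rats had undergone total bilateral adrenalectomy, so both groups lacked the hormones of the adrenal gland, and they spent 4 hours in air or in 0.8 ppm ozone. The other 8 libraries came from sham-operated (SHAM) rats in air (numbers 1 to 4) or ozone (numbers 17 to 20), which had their adrenal glands. Groups follow the sample titles. The treatment field of the labels gives ozone for all 8 ADREX libraries, also for the 4 titled Air, which the titles and the stated design contradict. Nothing says that the libraries of a group came from separate animals, so p-values measure only the spread between these libraries. The series asks how adrenal stress hormones shape the liver's response to ozone, and this comparison asks what of that response is seen without them.

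Inhaled ozone oxidizes the lining of the airways. The irritation activates the sympathetic nervous system and the axis from hypothalamus and pituitary to the adrenal gland, and the adrenal gland then releases adrenaline and glucocorticoids into the blood. In hepatocytes glucocorticoids bind a receptor that enters the nucleus and switches on genes of glucose production, amino acid breakdown and stress adaptation. Adrenalectomy removes both hormones, while sympathetic nerves, glucagon, cytokines and circulating products of the lung can still reach the liver.

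Recovered reads numbered 10089115 to 12740130 in the 8 ADREX libraries, and 3 reads, the limit that a count of 0 allows, were worth 0.235 to 0.297 RPM (reads scaled to 1000000 per library). Spearman's correlation across the genes tested was 0.941 to 0.978 between ADREX air libraries, 0.895 to 0.965 between ADREX ozone libraries and 0.851 to 0.965 between libraries of the 2 groups. The liver label was checked against 10 hepatocyte markers, among them Alb, which summed to 111761 to 210619 RPM. Transcripts typical of brain were present as well. Markers of neurons and of the myelin-forming oligodendrocytes summed over 24 genes to 506, 289, 279 and 1232 RPM in ADREX air libraries 65 to 68. The sums were 1997, 4836, 839 and 836 RPM in ADREX ozone libraries 81 to 84. ADREX air 68 was thus higher than ADREX ozone 83 and 84, and the groups overlapped (log2 difference 1.77 ± 0.78 SE, exact two-sided permutation p = 0.0857, where 4 against 4 cannot go below 0.0286). These sums are given again beside the results they move with.

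**Figure D1:**
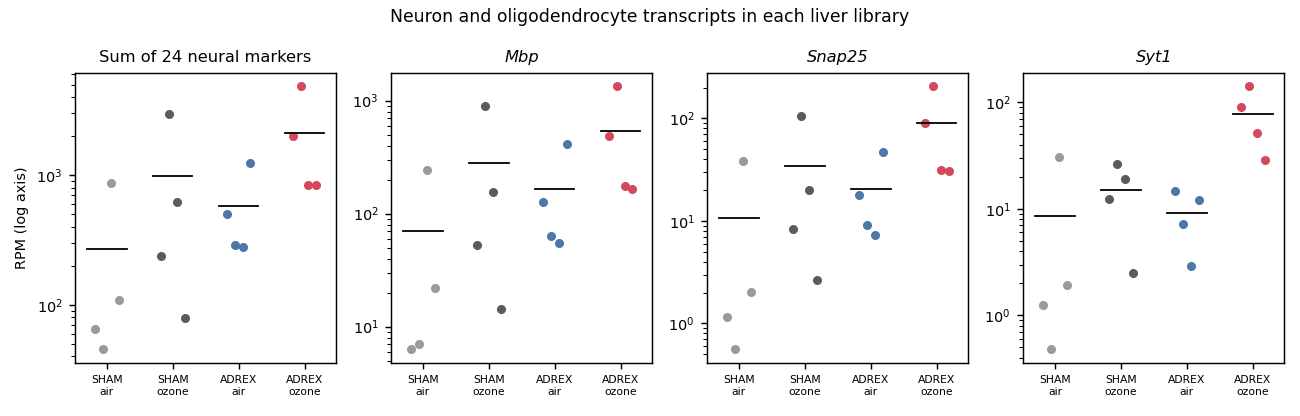
Neuron and oligodendrocyte transcripts in RPM (log axis) in each of the 16 liver libraries, with 1 point per library and a line at each group's mean. The sum of 24 markers reaches 4836 RPM in ADREX ozone 82, and for Syt1 all 4 ADREX ozone libraries lie above all 4 ADREX air libraries.

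Few genes passed the limma test for ozone in adrenalectomized rats, though many more had a low unadjusted p. At an unadjusted limma p under 0.05 were 2282 genes (17.8%), 1411 upward (11%) and 871 downward (6.81%). Limma called 16 of 12791 genes at an adjusted p under 0.05 (0.125%). Of these, 5 rose (0.0391% of the genes tested) and 11 fell (0.086%). The 5 that rose were Scrn1, Tubb2a, Morn4, Baiap3 and Ciapin1. The 11 that fell were Prox1, Zbtb20, Kdm7a, Ash1l, Bdp1, Rc3h1, N4bp2, Acvr1c, Tmem2, Pdpr and Atmin. In each of the 16 the 4 ozone and 4 air libraries did not overlap, which held for 894 genes upward (6.99%) and 381 downward (2.98%) among all genes tested. On the reads recovered from the table, edgeR called 49 genes (0.383%), 12 up (0.0938%) and 37 down (0.289%), and DESeq2 called 570 (4.46%), 259 up (2.02%) and 311 down (2.43%). Limma and edgeR shared 14 calls, all but Atmin and Ciapin1, and DESeq2 made all 16. Rescaled by TMM, the values gave 18 limma calls downward and 4 upward, and with median of ratios 15 downward and 4 upward. The count of limma calls was 0 without any 1 of ADREX air 65 or 66, ADREX ozone 82 or 84, or SHAM ozone 17, 19 or 20, with 1503 to 2258 genes at an unadjusted p under 0.05.

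**Figure D2:**
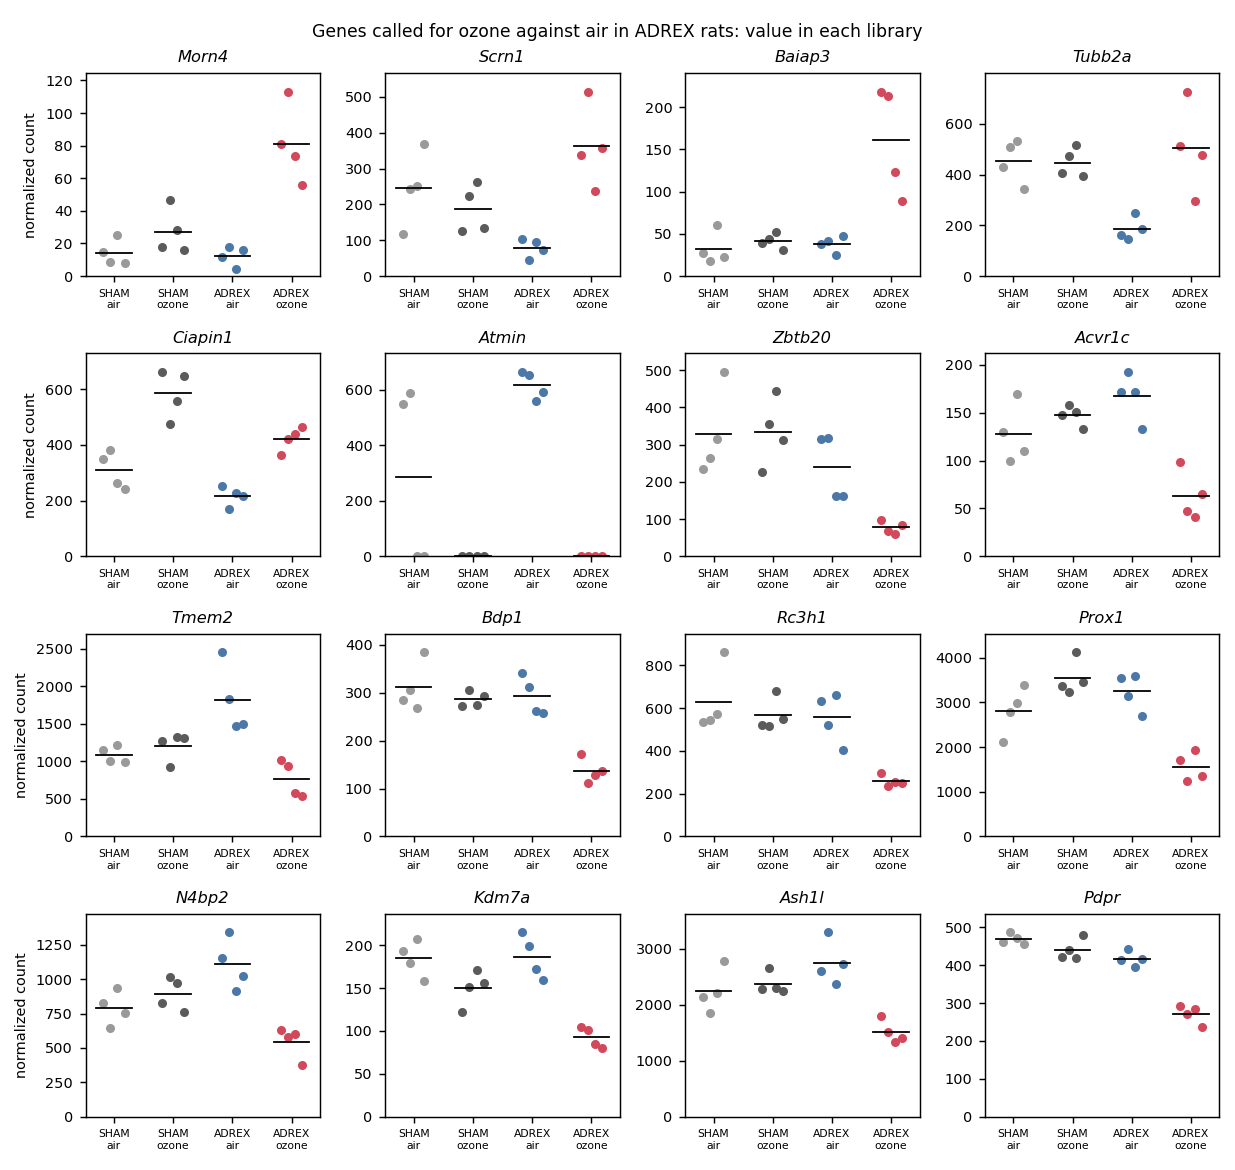
Normalized count (linear axes from 0, 1 scale per gene) of the 16 genes that limma called for ozone in ADREX rats, with 1 point per library and a line at each group's mean. In all 16 genes the 4 ADREX ozone points lie wholly above or wholly below the 4 ADREX air points. The SHAM libraries are shown beside them.

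Prox1 and Zbtb20, transcription factors of hepatocytes, fell. Prox1, a homeobox factor that hepatocytes and lymphatic vessels need to form, had normalized counts of 3538, 3150, 3599 and 2690 in ADREX air and 1706, 1230, 1941 and 1356 in ADREX ozone. The lowest air library was above the highest ozone library. The mean went from 3244 ± 419 to 1558 ± 325 (SD, n = 4 per group), a log2 change of −1.07 ± 0.18 (SE, adjusted p = 0.0352). In sham-operated rats its log2 change was 0.35 ± 0.18, and the difference between the 2 ozone effects was −1.42 ± 0.25 (adjusted p = 0.0387). Zbtb20, a zinc finger repressor that silences fetal genes such as alpha-fetoprotein in the adult liver, had 315, 317, 162 and 161 in air and 98.4, 67, 60.3 and 84.9 with ozone. Air libraries 65 and 66 were well above 67 and 68, and all 4 were above the ozone group. Its log2 change was −1.56 ± 0.29 (adjusted p = 0.0483), against 0.05 ± 0.29 in SHAM, and the difference between the effects did not pass (adjusted p = 0.135).

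Of 25 hepatocyte transcription factors, limma called Prox1 and Zbtb20 and edgeR also called Nfib, all downward. Nfib, a nuclear factor I protein of developmental gene control, went from 576 ± 208 to 271 ± 35.4 (log2 −1.02 ± 0.23, edgeR adjusted p = 0.0498, limma adjusted p = 0.0864). In 6 of the 25 (24%) all ozone libraries were below all air libraries, against 2.98% of all genes. These were the 3 just named and Nfia, Gata4 and Gata6. All gene lists here were written with earlier results of these data known, and this one counts Prox1 and Zbtb20. Such shares are thus partly built in and are no independent support. The list's median log2 change was −0.60, against 0.06 for all genes tested, and −0.51 without the called genes. In sham-operated rats the list's median was 0.04, and 4 of the 25 did not overlap downward (5.93% of all genes in SHAM). Hnf4a and Cebpa, factors that define hepatocyte identity, had log2 changes of −0.27 ± 0.26 and 0.08 ± 0.22 (limma adjusted p = 0.628 and 0.896). The neural marker sum was higher on average with ozone, where the list was lower. By library, the list's level against the air mean was −0.93 in ADREX ozone 82 (4836 RPM) and −0.31 in 81 (1997 RPM). It was −0.37 in 83 (839 RPM) and −0.62 in 84 (836 RPM). With a score of the neural sum in the fit the list's median log2 change was −0.39. Prox1 (−1.04, adjusted p = 0.0449) and Zbtb20 (−1.62, adjusted p = 0.0486) were still called. With the 3 libraries of highest neural sum left out (ADREX ozone 81 and 82 and SHAM ozone 18) neither passed (−0.99 and −1.65, limma adjusted p = 0.213 for both). Marker medians were 0.01 for hepatocytes, −0.04 for Kupffer cells, −0.36 for stellate cells and −0.48 for sinusoidal endothelium. Their part in the list's fall was not tested. In bulk liver, fewer cells of a type and less of an RNA per cell cannot be told apart.

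Enzymes that place or remove methyl groups on histones, which mark genes as active or silent, were also among the genes that fell. Kdm7a, a histone demethylase, had 215, 199, 173 and 159 in air and 104, 101, 84.5 and 80.6 with ozone. The ozone libraries lay within a narrow band below the air group (log2 −1.0 ± 0.16, adjusted p = 0.0352). Ash1l, a histone methyltransferase linked to active genes, had 2597, 3297, 2363 and 2732 in air and 1804, 1514, 1330 and 1412 with ozone. Every ozone library was below every air library, with a log2 change of −0.86 ± 0.15 (adjusted p = 0.0352). Nsd1, a methyltransferase of the same histone residue as Ash1l, went from 2250 ± 539 to 1172 ± 213 (log2 −0.93 ± 0.19, edgeR adjusted p = 0.0462, limma adjusted p = 0.0768). In SHAM the log2 changes were −0.30 for Kdm7a, 0.09 for Ash1l and 0.22 for Nsd1, and no difference between the ozone effects passed for them (adjusted p = 0.225, 0.114 and 0.116). Of 32 histone lysine methyltransferases and demethylases, 26 had a log2 change below 0, as did 43.4% of all genes, and 6 (18.8%) did not overlap downward, against 2.98% of all genes. The others among these 6 were Kdm5c, Phf8 and Kdm2b. This list too was written with earlier results known, and its share counts Kdm7a, Ash1l and Nsd1. The list's median was −0.32 in ADREX and −0.19 in SHAM. DESeq2 called 7 members, all downward.

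Proteins that mark messenger RNA for destruction showed the same direction. Rc3h1 encodes roquin, which binds stem-loops in mRNAs of inflammation and recruits the machinery that removes their tails. It had 633, 523, 663 and 406 in air and 297, 235, 253 and 248 with ozone. The lowest air library, 68, was still above the highest ozone library, and the log2 change was −1.08 ± 0.19 (adjusted p = 0.0352). In 7 of 24 mRNA decay factors (29.2%, counting Rc3h1) the ozone libraries were all below the air libraries, against 2.98% of all genes. These included Zc3h12c, a nuclease of the regnase family, with a mean of 64.1 ± 16.4 in air and 30.8 ± 7.34 with ozone. Zfp36l1, which binds AU-rich elements, had means of 5774 ± 961 and 3073 ± 339. Ddx6, a helicase of the decapping complex, had means of 744 ± 102 and 420 ± 52.1. Limma called none of these 3 over all genes (adjusted p = 0.0985, 0.1 and 0.114), and DESeq2 called each downward. The list's median log2 change was −0.38, also without Rc3h1, against −0.09 in SHAM, and −0.32 with the neural score in the fit. Of its 24 members, limma and edgeR each called 1 and DESeq2 7, all downward. The list was written with earlier results of these data known.

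**Figure D3:**
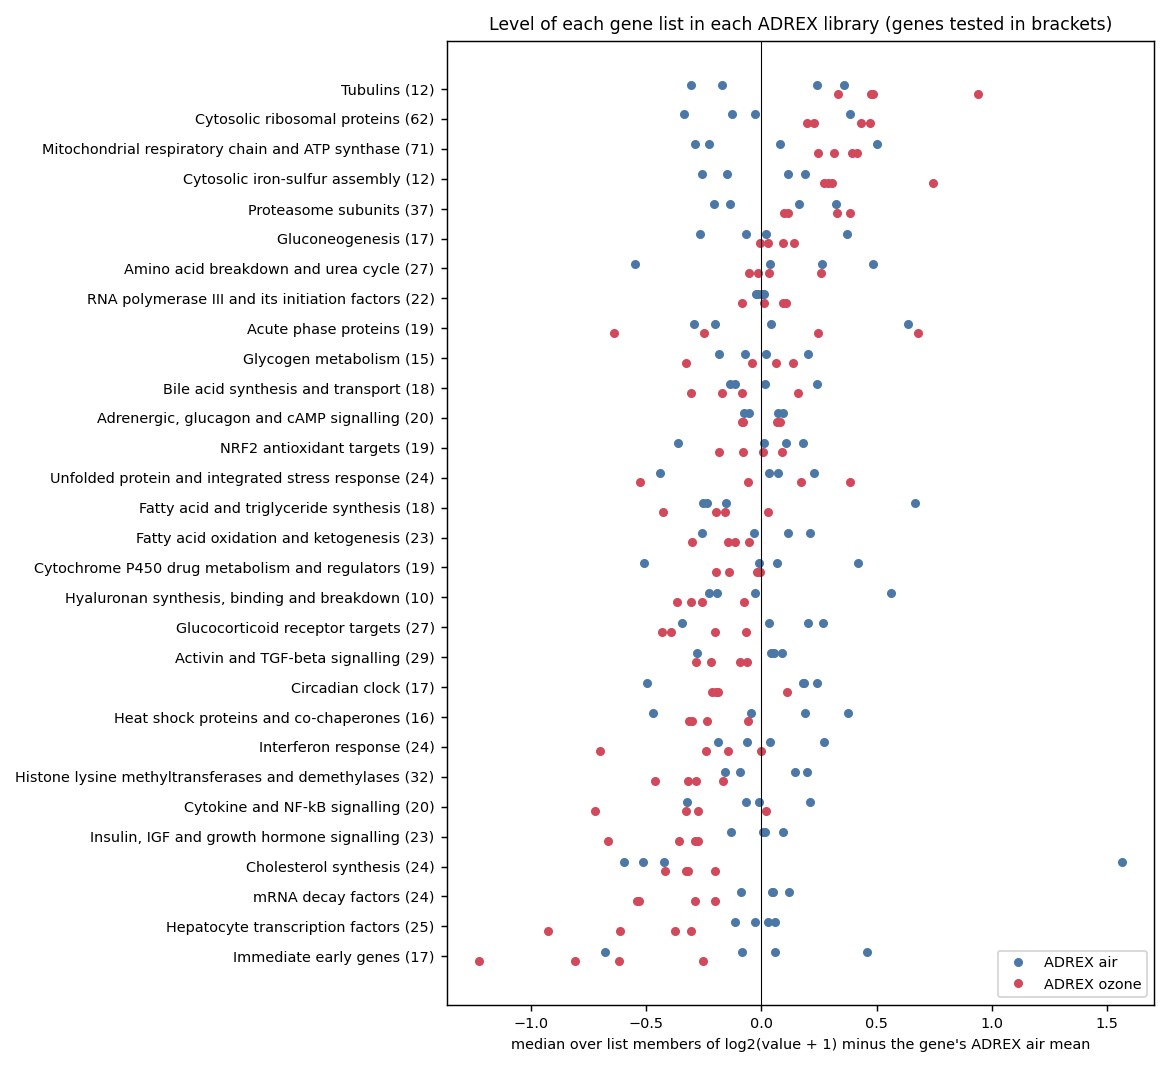
Level of each of 30 gene lists in each ADREX library: the median over the list's tested members of log2(value + 1) minus that gene's ADREX air mean, with 1 point per library. For hepatocyte transcription factors the ozone libraries span −0.93 to −0.31 and the air libraries −0.11 to 0.06, while for gluconeogenesis the groups overlap.

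The remaining genes that fell have varied roles. Bdp1, a subunit of the factor that brings RNA polymerase III to transfer RNA genes, had 341, 312, 262 and 258 in air and 173, 111, 128 and 137 with ozone (log2 −1.10 ± 0.16, adjusted p = 0.0352). It was the 1 member that limma called of 22 genes of polymerase III and its initiation factors, whose median log2 change was 0.04, and −0.05 after rescaling by TMM. Acvr1c, a receptor for activins and related ligands that is known from fat tissue, had 172, 193, 171 and 133 in air. With ozone it had 98.4, 47.1, 40.6 and 64.8 (log2 −1.47 ± 0.24, adjusted p = 0.0352), and each ozone library was below each air library. In SHAM it changed by 0.24 ± 0.24, and the difference between the effects did not pass (−1.71 ± 0.34, adjusted p = 0.0775). Of 29 genes of activin and TGF-beta signalling, edgeR also called Bmpr2, a receptor for bone morphogenetic proteins (291 ± 58.7 to 168 ± 25.4, log2 −0.78 ± 0.17, edgeR adjusted p = 0.0498, limma adjusted p = 0.0805). The list's median was −0.19 (−0.28 without ADREX air 68), and its air and ozone libraries overlapped.

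Tmem2, a hyaluronidase on the cell surface that cuts a large sugar polymer of the matrix, had 2454, 1831, 1474 and 1496 in air and 1017, 939, 574 and 543 with ozone. Its lowest air library was 67, and all 4 were above the ozone group (log2 −1.26 ± 0.22, adjusted p = 0.0352). In SHAM its means were nearly level, with a log2 change of 0.14 ± 0.22, and the difference between the effects did not pass (adjusted p = 0.0989). Stab1 and Stab2, receptors that take up hyaluronan in liver sinusoids, had log2 changes of −0.91 ± 0.35 and −0.67 ± 0.27, which did not pass (limma adjusted p = 0.203 and 0.227). All 9 tested markers of sinusoidal endothelium were lower on average with ozone, with a median of −0.48 in ADREX and −0.46 in SHAM, but for each of the 9 the groups overlapped. Limma, edgeR and DESeq2 called 0 of them, with 3 at an unadjusted limma p under 0.05. The ADREX median was −0.27 without ADREX air 65. Their summed level was 393 to 842 RPM in air and 358 to 527 RPM with ozone. Its part in the fall of Tmem2 was not tested.

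N4bp2, a binding partner of the ubiquitin ligase Nedd4, had 1157, 1343, 917 and 1025 in air and 627, 576, 599 and 374 with ozone (log2 −1.04 ± 0.18, adjusted p = 0.0352). Pdpr, the regulatory subunit of the phosphatase that switches on pyruvate dehydrogenase, had 413, 444, 395 and 416 in air and 293, 271, 284 and 236 with ozone. Its groups were tight and well apart, and its log2 change of −0.62 ± 0.12 (adjusted p = 0.0483) was the smallest in size among the called genes. With the neural score in the fit the change was −0.61, and its adjusted p was 0.0848. Atmin, a partner of the DNA damage kinase ATM, had 665, 652, 560 and 593 in ADREX air and is listed at 0 in all 4 ADREX ozone libraries. In SHAM rats it had 549 and 587 in air libraries 1 and 2, and air libraries 3 and 4 and the whole ozone group are listed at 0 as well. No fold change is given.

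Among the genes that edgeR called and limma did not, the rule for naming gave 8 that fell. Besides Nfib and Nsd1 they were Aff1, a scaffold of the complex that releases paused RNA polymerase II (log2 −1.11), and Med13, of the kinase module of Mediator (−0.97). Lcor, a corepressor of nuclear receptors, had a log2 change of −0.90, Stard13, a GTPase-activating protein, of −0.95, and Dock8, an activator of Cdc42 in immune cells, of −0.91. Their edgeR adjusted p-values were 0.0354 to 0.0495, and their limma adjusted p-values 0.0612 to 0.0953. Parp14, an interferon-induced enzyme that attaches ADP-ribose to proteins, had 1837, 2115, 1762 and 1494 in air and 1199, 674, 914 and 875 with ozone (log2 −1.0 ± 0.21, edgeR adjusted p = 0.0498). It fell with ozone in SHAM too (log2 −1.06 ± 0.21, limma adjusted p = 0.0191), and the difference between the effects was 0.06 (adjusted p = 0.953). Of 35 genes that edgeR called and limma did not, 27 fell and 8 rose. Cartpt, Cacna1c, Slit1, Ppfia2 and Gnb5 rose at means below the naming rule's level, and are given after their values were seen. Their log2 changes were 3.72, 2.84, 2.69, 1.96 and 1.16. With the neural score in the fit these were 2.91, 2.14, 1.92, 1.64 and 1.02. None of these genes is on the neuron or oligodendrocyte list. For Cartpt, Cacna1c, Slit1 and Ppfia2 the means of ADREX air, SHAM air and SHAM ozone were each below the mean needed to be tested. Only their ADREX ozone means, 50.6, 47.0, 49.7 and 35.3, brought these genes into the test. The upward direction of Cartpt, Cacna1c, Slit1 and Ppfia2 is thus partly built in by the filter. Gnb5 was above that level in each group. Lats1, a kinase of the Hippo pathway, was among the 27 though outside the naming rule, and is described here after its values were seen. It had 631, 635, 649 and 547 in air and 441, 443, 370 and 353 with ozone (log2 −0.62 ± 0.13, edgeR adjusted p = 0.0318, limma adjusted p = 0.0768). Its log2 change was 0.49 ± 0.13 in SHAM, and the difference of −1.11 ± 0.18 passed (adjusted p = 0.0295).

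Scrn1 and Tubb2a, lower in each ADREX air library than in any SHAM library, rose with ozone. Scrn1 encodes secernin, a cytosolic protein linked to exocytosis. It had 102, 45.5, 93.8 and 73.4 in ADREX air and 337, 514, 237 and 358 in ADREX ozone. The lowest ozone library was more than the highest air library by a wide margin, and the means were 78.8 ± 25.3 and 362 ± 115 (4.58-fold, log2 2.19 ± 0.35, adjusted p = 0.0352). In SHAM it had 118, 243, 250 and 367 in air and 125, 224, 262 and 133 with ozone, with no separation of the groups. The ADREX ozone libraries were within or above the SHAM range. Tubb2a, a beta tubulin of microtubules, had 160, 145, 249 and 186 in ADREX air and 515, 727, 297 and 476 in ADREX ozone (log2 1.40 ± 0.24, adjusted p = 0.0352). Its SHAM libraries held 345 to 534 in air and 394 to 518 with ozone. Of 12 tubulins it was the 1 that limma and edgeR called. The median of the tubulins was 0.52, and 0.12 with the neural score in the fit. Tubb3 belongs both to the tubulins and to the markers that make the score, so that fit is not independent of the list. The differences between the ozone effects, 2.55 ± 0.50 for Scrn1 and 1.41 ± 0.34 for Tubb2a, did not pass (adjusted p = 0.0735 and 0.116).

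Morn4 and Baiap3 rose from low levels. Morn4, a protein of MORN repeats studied mainly in neurons and sensory cells, had 11.8, 18, 4.47 and 15.9 in air and 81.2, 113, 73.5 and 56.1 with ozone (log2 2.70 ± 0.47, adjusted p = 0.0352). Baiap3, which acts in the release of vesicles from neuroendocrine cells, had 37.7, 41.3, 25.3 and 47.7 in air and 218, 214, 123 and 89.2 with ozone (log2 1.99 ± 0.37, adjusted p = 0.0483). All ozone libraries of both genes were above all air libraries. Fam107a, an actin-binding protein best known from brain, was called by edgeR alone of those 2 tools. Its mean went from 18.5 ± 5.06 to 158 ± 82 (log2 2.92 ± 0.59, edgeR adjusted p = 0.0452, limma adjusted p = 0.0692). Pdrg1, a subunit of a prefoldin-like chaperone complex, went from 152 ± 12.0 to 274 ± 25.6 (log2 0.85 ± 0.17, edgeR adjusted p = 0.0498, limma adjusted p = 0.0635).

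In the ADREX group means the neural marker sum moved with Scrn1, Tubb2a, Morn4, Baiap3 and Fam107a. It was 577 ± 449 RPM in ADREX air and 2127 ± 1887 in ADREX ozone (SD, n = 4). In SHAM, where the neuron list's median log2 change was 1.88, Scrn1 changed by −0.35 and Tubb2a by −0.01. The SHAM changes of Morn4, Baiap3 and Fam107a were 0.93, 0.51 and 1.43. With the neural score in the fit the log2 changes were 1.91 for Scrn1, 1.24 for Tubb2a, 2.16 for Morn4 and 1.55 for Baiap3, and all 4 were still called (adjusted p = 0.0422, 0.0486, 0.0363 and 0.0449). For Fam107a the change was 2.12 in that fit. With ADREX ozone 81 and 82 and SHAM ozone 18, the highest in neural sum, left out, none of these 4 passed. Their log2 changes were then 1.94, 1.05, 2.41 and 1.47, with limma adjusted p = 0.213, 0.231, 0.225 and 0.303, and Tmem2 was the 1 gene called. Among the neuron list itself, all 14 tested members were higher with ozone (median log2 change 2.09, and 1.88 in SHAM), and 5 of the 14 (35.7%) did not overlap upward, against 6.99% of all genes. Syt1, which triggers synaptic vesicle release, had 197, 95.3, 43.2 and 177 in air and 1316, 1751, 724 and 442 with ozone (log2 3.07 ± 0.97, limma adjusted p = 0.156). Mbp, a myelin protein, had 1714, 831, 821 and 6117 in air and 7027, 16558, 2452 and 2540 with ozone, so its groups overlapped (log2 1.67 ± 1.20, limma adjusted p = 0.5). Limma and edgeR called 0 of the 23 tested neuron and oligodendrocyte markers, with 8 at an unadjusted limma p under 0.05, and DESeq2 called 1.

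Ciapin1 was the only gene that limma called in both ozone comparisons. It encodes anamorsin, an electron carrier in the assembly of iron-sulfur clusters in the cytosol. It had 254, 172, 228 and 218 in ADREX air and 363, 422, 439 and 466 in ADREX ozone. The groups were well apart, with means of 218 ± 34.5 and 422 ± 43.9 (log2 0.96 ± 0.18, adjusted p = 0.0483, edgeR adjusted p = 0.0564). In SHAM the log2 change was 0.93 ± 0.18 (adjusted p = 0.0157), and the difference between the effects was 0.03 ± 0.25 (adjusted p = 0.979). All 12 tested genes of the iron-sulfur assembly list had a log2 change above 0 in ADREX, where 56.6% of all genes did. Their median was 0.35 (0.22 without ADREX ozone 84), and −0.02 in SHAM. The list was meant for the cytosol but as written also named Iscu and Nfs1, which act mainly in mitochondria. Its count is thus not of cytosolic genes alone. Ciapin1 was the 1 member called, and the list's levels did not overlap between groups, at −0.26 to 0.19 in air and 0.27 to 0.74 with ozone.

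Promoters of Scrn1 and Tubb2a, which rose, and of Rc3h1, which fell, are shown as examples of those matched. Each is the 250 bases before the start from RefSeq, build GRCr8, 5′ to 3′ on the gene's strand. Of the 26 genes that the naming rule took from limma and edgeR calls, 18 matched 1 promoter. Capitals mark matches on either strand to 6 motifs. The core of the glucocorticoid receptor site was searched as AGAACA, which reads TGTTCT on the opposite strand. The cAMP response element was searched as TGACGTCA. For the antioxidant response element the letters were TGACNNNGC. The remaining motifs were the E-box with the letters CACGTG, the TATA box with the letters TATAAA, and the CCAAT box. The Scrn1 promoter lies at chr4:85024174-85024423 on the minus strand, that of Tubb2a at chr17:31001936-31002185 on the plus strand and that of Rc3h1, which had no match, at chr13:75706848-75707097 on the plus strand.
Scrn1: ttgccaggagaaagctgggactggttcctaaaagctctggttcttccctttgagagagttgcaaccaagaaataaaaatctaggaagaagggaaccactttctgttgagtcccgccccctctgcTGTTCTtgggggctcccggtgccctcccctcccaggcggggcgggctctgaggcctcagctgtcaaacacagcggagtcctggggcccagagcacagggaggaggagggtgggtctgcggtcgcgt
Tubb2a: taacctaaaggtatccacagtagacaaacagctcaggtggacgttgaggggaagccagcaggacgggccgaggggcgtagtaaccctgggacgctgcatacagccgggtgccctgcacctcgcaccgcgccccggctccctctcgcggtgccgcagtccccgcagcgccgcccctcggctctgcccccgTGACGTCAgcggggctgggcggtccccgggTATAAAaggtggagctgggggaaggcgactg
Rc3h1: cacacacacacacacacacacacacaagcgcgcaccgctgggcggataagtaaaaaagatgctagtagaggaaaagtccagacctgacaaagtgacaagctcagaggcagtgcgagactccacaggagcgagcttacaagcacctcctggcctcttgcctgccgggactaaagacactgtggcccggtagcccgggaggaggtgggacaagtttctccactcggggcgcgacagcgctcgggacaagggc
In Scrn1 the TGTTCT match began 126 bases before the start, and in Tubb2a TGACGTCA began at 61 and TATAAA at 31 bases before it. AGAACA was in 6 of the 18 matched promoters and in 17.52% of 33469 rat promoters. TGACGTCA was in 1 of 18 and in 1.587% of all, CCAAT in 6 of 18 and in 34.02%, TATAAA in 1 of 18 and in 12.93%. CACGTG was in 1 of 18 and in 5.593% of all, and TGACNNNGC in 0 of 18 and in 10.08%. A match is a run of letters in this window and says nothing of binding.

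Without adrenal glands, the genes that glucocorticoids are known to induce showed no common rise with ozone. Fkbp5, a chaperone of the glucocorticoid receptor that the receptor itself induces, had 295, 279, 460 and 267 in ADREX air and 481, 348, 179 and 452 in ADREX ozone. The groups overlapped (log2 0.11 ± 0.30, limma adjusted p = 0.895), whereas its log2 change in SHAM was 2.08 ± 0.30, and the difference of −1.98 ± 0.42 did not pass over all genes (adjusted p = 0.0901). Tat, an enzyme of tyrosine breakdown, ranged from 7674 to 15242 in ADREX air and from 6203 to 16628 in ADREX ozone (log2 −0.25 ± 0.33, limma adjusted p = 0.74). Of 27 glucocorticoid receptor targets, limma, edgeR and DESeq2 called 0, and 1 had an unadjusted limma p under 0.05. That member was Igfbp1, a carrier of insulin-like growth factors, with 5051, 4733, 4867 and 5108 in air and 2320, 1742, 2386 and 3664 with ozone. Its air libraries were close together and all above the ozone group (log2 −1.02 ± 0.42, limma adjusted p = 0.228). The list's median log2 change was 0.35 in SHAM and −0.18 in ADREX, with −0.32 without ADREX air 66, −0.10 without 68 and −0.09 without ADREX ozone 84. Members with all ozone libraries above all air libraries numbered 0 in ADREX and 6 in SHAM (5.14% of all genes in SHAM). The difference between these counts was not tested.

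**Figure D4:**
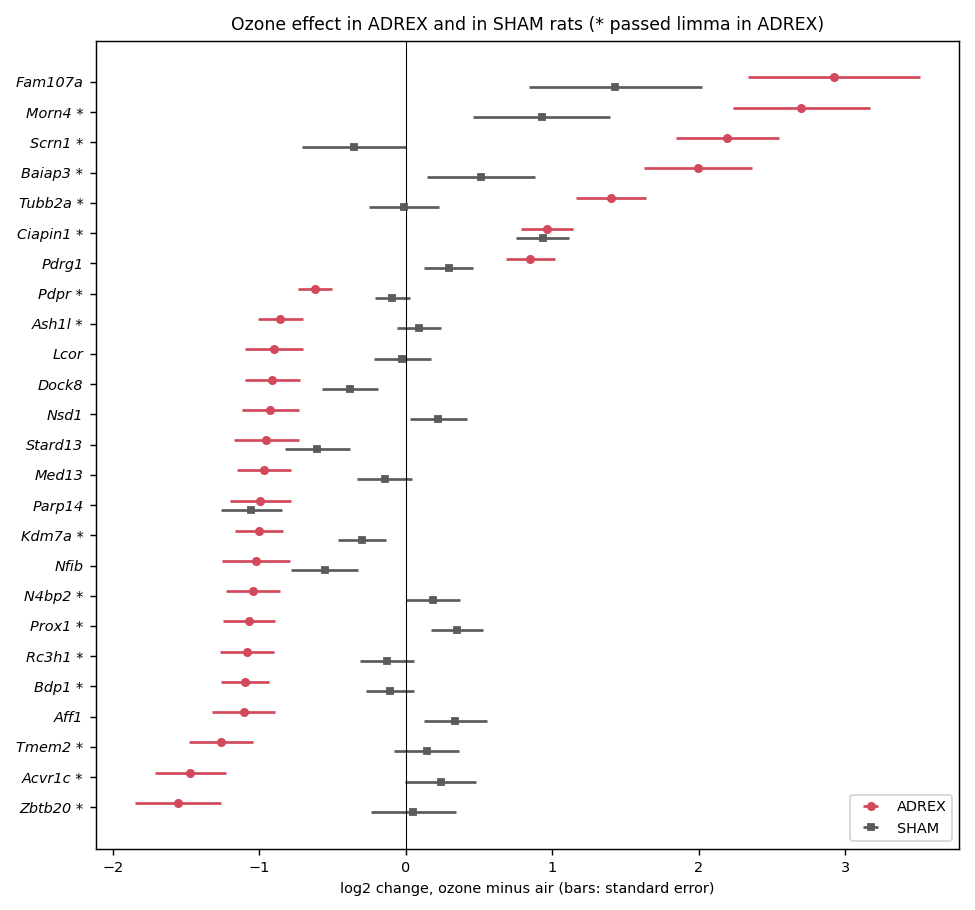
Log2 change with ozone (ozone minus air, bars are standard errors) in ADREX and in SHAM rats. The genes are those that the naming rule took from limma and edgeR calls, without Atmin, and an asterisk marks limma calls in ADREX. Ciapin1 and Parp14 have nearly the same value in both, while Prox1 is at −1.07 in ADREX and 0.35 in SHAM.

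The ozone effects in ADREX and SHAM rats were set against each other for the named genes. Limma called 202 genes (1.58%) for ozone in SHAM and 14 (0.109%) for the difference. Of the 16 genes called in ADREX, 8 had the same sign in SHAM, and 12 had a SHAM log2 change under 0.5 in size. The difference passed for 1 of the 16, Prox1, and for 2 of the 49 that edgeR called, Prox1 and Lats1. For the remaining genes a call in ADREX and none in SHAM does not show that the effects differ.

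No gene of the 6 main metabolic lists passed the limma or edgeR test. Limma and edgeR called 0 members of gluconeogenesis (17 genes), glycogen metabolism (15), fatty acid and triglyceride synthesis (18), bile acid synthesis and transport (18), fatty acid oxidation and ketogenesis (23) or amino acid breakdown and the urea cycle (27). Unadjusted limma p-values were under 0.05 for 0, 3, 4, 3, 2 and 2 of them, and DESeq2 called 2, both in fatty acid oxidation. The medians were 0.07, −0.01, −0.06, −0.01, −0.08 and 0.07. Pck1, the enzyme that commits carbon to glucose, averaged 52582 ± 15882 and 38310 ± 2948 (limma adjusted p = 0.509). For cholesterol synthesis, 21 of 24 genes were lower on average with ozone (median −0.36), but the median was 0.06 without ADREX air 67 and −0.57 without 68. ADREX air 67 held 2183 of Srebf2, the regulator of the pathway, against 1096 to 1260 in the other air libraries.

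Signalling genes of insulin, IGF and growth hormone leaned lower. Insr, the insulin receptor, had 2596, 2612, 2904 and 2220 in air and 1946, 1186, 1630 and 1926 with ozone. Every ozone library was below every air library (log2 −0.65 ± 0.16, limma adjusted p = 0.096, DESeq2 adjusted p = 0.00571). Pdpk1, a kinase that activates Akt, averaged 204 ± 24.5 in air and 148 ± 25.3 with ozone, and Trib1, an adaptor that restrains lipogenesis, 275 ± 73.1 and 147 ± 57.1. With Igfbp1 these were the 4 of 23 members (17.4%) that did not overlap downward, against 2.98% of all genes. The list's median was −0.35 in ADREX and −0.10 in SHAM. Limma and edgeR called 0 members, with 10 lower at an unadjusted limma p under 0.05 (6.81% of all genes), and DESeq2 called 3.

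Immediate early genes, which cells switch on within minutes of a stimulus, were lower on average in 16 of 17 cases, as were 43.4% of all genes. The list's median log2 change was −0.66 in ADREX and −0.08 in SHAM. Its levels overlapped between groups, at −0.68 to 0.46 in air and −1.22 to −0.25 with ozone. Egr1 had 3787, 1206, 1133 and 516 in air and 285, 178, 309 and 420 with ozone. The groups did not overlap, but the air libraries spread widely (log2 −2.16 ± 0.64, limma adjusted p = 0.143). Limma and edgeR called 0 of the 17, with 5 lower at an unadjusted limma p under 0.05 (6.81% of all genes), and DESeq2 called 2. In the heat shock list edgeR called Hspa1a, the inducible chaperone of heat stress. It had 53.0, 98.5, 14.9 and 104 in air and 14.9, 6.28, 7.68 and 8.64 with ozone (log2 −2.46 ± 0.53, edgeR adjusted p = 0.0406, limma adjusted p = 0.0768). Air library 67 was at the level of ozone library 81, and the other 3 air libraries were well above the ozone group. The median of the 16 heat shock genes was −0.23, with −0.37 without ADREX air 67 and −0.14 without 68.

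No gene on 4 lists of inflammation and oxidant defence passed the limma or edgeR test. Acute phase proteins, which the liver secretes in inflammation, had a median of 0.01 over 19 genes, and targets of NRF2, the regulator of antioxidant enzymes, of −0.04 over 19. Limma, edgeR and DESeq2 called 0 of both lists, with 0 and 1 at an unadjusted limma p under 0.05. Cytokine and NF-kB signalling genes had a median of −0.33, with 18 of 20 lower and 0 called by the 3 tools (3 at an unadjusted limma p under 0.05), and −0.19 without ADREX air 67. Interferon response genes had a median of −0.31, with 22 of 24 lower, which became −0.14 without ADREX air 65, −0.00 without ADREX ozone 82 and −0.09 with the neural score in the fit. DESeq2 called 1 of them, Ifih1, and 3 had an unadjusted limma p under 0.05. Ifih1, a sensor of viral RNA, averaged 379 ± 46.0 in air and 203 ± 36.7 with ozone without overlap (log2 −0.91 ± 0.20, limma adjusted p = 0.0851).

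Genes of the translation and respiration machinery leaned the other way. Of 62 cytosolic ribosomal protein genes 54 were higher with ozone, with a median log2 change of 0.41 (0.11 in SHAM), and 2 (3.23%) did not overlap upward, Rpl17 and Rplp0, against 6.99% of all genes. Of 71 respiratory chain and ATP synthase genes 66 were higher, with a median of 0.36 (0.16 in SHAM, and 0.56 in ADREX without air 67), and 1 did not overlap upward, Cox7c. Of 37 proteasome subunits 30 were higher, with a median of 0.24 (0.16 without ADREX ozone 82). The levels of all 3 lists overlapped between air and ozone libraries, with ADREX air 67 above at least 2 ozone libraries in each. Limma and edgeR called 0 of them, with 20, 22 and 4 members at an unadjusted limma p under 0.05, all upward (11% of all genes), and DESeq2 called 1, of the respiratory chain.

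Other lists gave little separation of the groups. Of 20 genes of adrenergic, glucagon and cAMP signalling (median −0.01), Gnas, the stimulatory G protein, did not overlap upward (5%, against 6.99% of all genes). Crebbp and Creb1, which carry the cAMP signal to DNA, did not overlap downward (10%, against 2.98% of all genes). Limma adjusted p-values were 0.166 for Gnas, 0.143 for Crebbp and 0.169 for Creb1. Circadian clock genes had a median of −0.21 over 17, cytochrome P450 genes of drug metabolism and their regulators −0.09 over 19, genes of the unfolded protein response −0.04 over 24 and hyaluronan genes −0.11 over 10. Leaving out 1 ADREX library moved the clock median to between −0.25 and −0.07, the latter without ozone 84, and the hyaluronan median to between −0.27, also without ozone 84, and −0.05. Of these 5 lists limma and edgeR called Tmem2 alone.

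Markers of other liver cells were checked in the same way. The median log2 change was −0.04 for 10 Kupffer cell and macrophage markers, −0.36 for 10 stellate cell and fibroblast markers and −0.18 for 5 cholangiocyte markers. It was 0.24 for 4 lymphocyte, −0.85 for 3 neutrophil and −0.89 for 3 erythroid markers, and 0.01 for the 10 hepatocyte markers. Several of these medians moved with single libraries. Leaving out 1 ADREX library gave −0.49 to −0.22 for stellate cells (−0.22 without air 66 or ozone 82) and −0.33 to −0.02 for cholangiocytes (ozone 83 and 84). It gave 0.10 to 0.26 for lymphocytes and −1.14 to −0.37 for neutrophils, with 0.10 and −0.37 both without air 67. The erythroid range was −1.61 to −0.49 (ozone 81 and 84). With the neural score in the fit the stellate value was −0.11 and the hepatocyte value 0.26. Oligodendrocyte markers, which are part of the score, had a median of 1.81 over 9. Astrocyte markers had 1.77 over 5, and −0.15 with the score in the fit. Markers of the adrenal gland summed to 1.09 to 3.34 RPM in air and 3.69 to 22.0 RPM with ozone, without overlap, and 2 of the 9 were at 0 in all 8 libraries. The 1 adrenal marker high enough to be tested, Chga, is a gene of neuroendocrine cells in general (log2 2.14 ± 1.08, limma adjusted p = 0.311). Limma and edgeR called 0 of the markers in this paragraph, and DESeq2 called 1, an astrocyte marker. Unadjusted limma p-values were under 0.05 for 1 member each of the Kupffer cell, stellate cell, cholangiocyte, neutrophil and astrocyte lists and for 0 of the rest. Exocrine pancreas markers had a median of 0.30 over 2 (0.18 without ozone 83, 0.50 without ozone 84) and the 1 adipocyte marker a change of −0.42 (−0.23 without air 67), and none of lung epithelium or skeletal muscle was high enough to be tested.

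**Figure D5:**
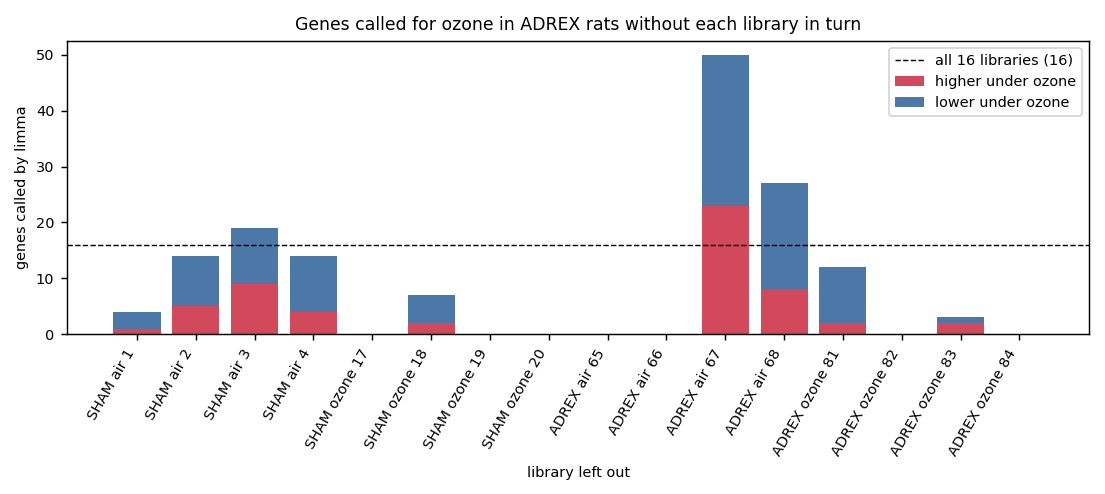
Number of genes that limma called for ozone in ADREX rats without each of the 16 libraries in turn (bars from 0, split into higher and lower under ozone), with a dashed line at the 16 called from all libraries. The count ranges from 0, without any of 7 libraries, to 50 without ADREX air 67.

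Most calls were close to the threshold and moved with single libraries. Leaving out an ADREX ozone library gave 3 calls (83) or 12 (81) beside the zeros above, and leaving out an ADREX air library gave 27 (68) or 50 (67). A fit to the 8 ADREX libraries alone called 2. The sizes moved less than the calls. The 14 list medians within 0.1 of 0 are not read as a direction, since without 1 ADREX library they ranged from −0.25 to 0.30. Across the settings run, the log2 change stayed between −1.22 and −1.0 for Bdp1, between −1.19 and −0.97 for Prox1, between −1.67 and −1.11 for Tmem2 and between 1.91 and 2.38 for Scrn1. Scrn1 and Prox1 were each called in 19 of 28 settings, the most of the 16, and Pdpr in 9, the fewest.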

How the data were processed

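Per the labels' protocols, liver mRNA was selected and sequenced on a NextSeq 500 after library preparation with a Wafergen kit. The submitters' processing notes name Partek, DESeq2 and the rat build rn6. What aligner, strand setting, annotation and tool versions the authors used is not given in the sources used here. As signal values, the deposited table has the reads of 22587 gene symbols, each column scaled by the authors with its own size factor. Dividing each column by its smallest step gave whole reads for 100% of values within 0.01 (largest deviation 0.000388), 8372891 to 14096246 per library over all 16. RPM are these reads scaled to 1000000 per library. Intervals and limits from reads cover counting error only.

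Genes with a mean over the 16 columns of at least 14.7, or 1 per 1000000 of the median column total, entered the test (12791). Values as log2(value + 1) were fitted with limma-trend (limma 3.58.1, R 4.3.3), two-sided, with 4 group means and all 16 libraries. Degrees of freedom were 12 (residual) plus 4.42 (prior), and p-values were adjusted by Benjamini-Hochberg over all genes tested. A gene is called at an adjusted p under 0.05. Adjusted p-values are limma's unless edgeR (4.0.16, quasi-likelihood) or DESeq2 (1.42.0) is named, which were run on the recovered reads as alternatives. Log2 changes are on the log2(value + 1) scale, which understates the change of low genes. Libraries do not overlap when all 4 of a group lie above all 4 of the other. Named genes are all limma calls, up to 8 rises and 8 falls that edgeR called and limma did not (without overlap, at a mean of at least 73.4 and with a proper symbol), up to 4 members a list without overlap, and the 10 most abundant neural markers. Some of the list members so named are not reported here. The members, the lists and these rules were chosen with earlier results of these data known. The neural score is log2 of the summed RPM of 24 markers plus 1. The fit was tested on simulated data. Lists are described by counts and medians, with no test of a list. Protein sequences were not used here.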

Additional observations from a re-analysis of the deposited data

Results flagged for a closer look

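In 146 groups of 4 libraries examined for the named genes, 8 had 1 library far from the other 3, by a gap beyond Dixon's 95% limit. Chance alone sets about 1 in 20 groups apart in this way. Gnas stood at 978.668 in ADREX ozone 84, with the other ozone libraries at 613 to 624. ADREX air 67 held 2183.17 of Srebf2 (others 1096 to 1260) and 591.212 of Ddx6 (others 785 to 810). ADREX air 65 held 71.7902 of Cxcl10, a chemokine that interferon induces (others 32.8 to 39.1), and 447.218 of Ifih1 (others 350 to 362). ADREX air 68 held 6117.03 of Mbp (others 821 to 1714), 420.683 of Cldn11 (others 65.7 to 113) and 347.308 of Mobp (others 51.9 to 101), all genes of myelin. The ozone effect differed between ADREX and SHAM rats for Lats1, by −1.10961 on the log2 scale (limma adjusted p = 0.0295), and for Prox1, by −1.41941 (limma adjusted p = 0.0387).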

How the results depend on the processing

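The count of genes called for ozone in ADREX rats, 16, was 26 with a pseudocount of 10, 36 with no filter on low values (63.9% up, against 31.2%), 330 with array quality weights, 49 with edgeR, 570 with DESeq2, 27 with the neural score as a covariate, 1 without the 3 libraries richest in neural markers, 2 in the 8 ADREX libraries alone and 149 at an adjusted p under 0.1. It was 13 with the stricter filter, 22 with TMM, 19 with median of ratios and 15 with a robust fit. Leaving out each library in turn gave 0 to 50. The count of 14 for the difference between the ozone effects was 182 with array quality weights, 24 with edgeR, 248 with DESeq2 and 22 with the neural score, and 3 to 33 without each library in turn. The cause of these shifts was not tested. No log2 change of a named gene turned its sign in the settings run. List medians, which carry no test, did for several lists, of which some are given here. Cholesterol synthesis was 0.06 without ADREX air 67 (−0.36 with it), and polymerase III −0.05 with TMM (0.04 without). Without 1 library, amino acid breakdown was −0.13 to 0.23 (0.07 with all) and acute phase proteins −0.25 to 0.28 (0.01 with all). Astrocyte markers were −0.15 with the neural score in the fit (1.77 without). Of 1995 recomputed log2 changes of named genes, 1708 kept their side of the threshold, 201 lost a call and 86 gained one. Of 482 list medians, 12 moved by more than the spread between libraries. No paired analysis was possible because the groups share no replicate numbers. At these depths, 3 reads are worth 0.235 to 0.297 RPM in the ADREX libraries.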
